A study of Mus musculus with 2 samples.

Results

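The muscle-enriched miRNAs miR-1, miR-133, miR-206, miR-208 and miR-486 were followed in fibro-adipogenic progenitors (FAPs), the mesenchymal cells of skeletal muscle that can become adipocytes. Members were taken by name, with earlier results of these data known, as every arm of miR-1a, miR-1b, miR-133a, miR-133b, miR-206, miR-208a, miR-208b, miR-499, miR-486 and miR-3107, and 10 of the 628 miRNA rows met this rule. All cells were Sca1+ FAPs, sorted from wild-type C57Bl/6 skeletal muscle and grown to roughly 80% confluence in medium that held FGF (5 ng/ml), 20% FBS and 10% HS. They then spent 24 h either in basal medium (BM, with 10% HS) or in adipogenic differentiation medium (ADM), of which the sources used here give no composition. Each medium gave 1 small RNA library, so a difference below is one between these libraries and no test of the media was possible. How many mice or cultures stand behind a library was not stated. The series holds no library from before the 24 h, so a fall in ADM and a rise in BM cannot be told apart.

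MicroRNAs are short RNAs, cut from hairpin precursors, that repress mRNAs paired to their seed near the 5′ end. miR-1, miR-133 and miR-206 are the classic muscle miRNAs, switched on by myogenic transcription factors: miR-1 and miR-206 favour differentiation of myoblasts, and miR-133 favours their proliferation and restrains serum response factor. In mouse muscle progenitors and brown preadipocytes miR-133 also represses Prdm16, the regulator of brown fat fate. miR-486 is made from an intron of the ankyrin gene Ank1 and is abundant in muscle and also in red blood cells. miR-208b is carried by the gene of slow myosin heavy chain, Myh7.

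RefSeq mature sequences (GRCm38.p6, the assembly of mm10) were matched by name for 4 of the 10 rows. They are shown because the seed, bases 2 to 8 in capitals, sets the family to which each belongs.
mmu-miR-206-3p: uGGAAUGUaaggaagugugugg
mmu-miR-133b-3p: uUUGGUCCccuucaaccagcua
mmu-miR-133b-5p: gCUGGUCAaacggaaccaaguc
mmu-miR-208b-3p: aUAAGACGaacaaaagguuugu
They lie at chr1:20679055-20679076 (+), chr1:20682834-20682855 (+), chr1:20682797-20682818 (+) and chr14:54975710-54975731 (-), in this order. Each of the 4 has a seed of its own. By general knowledge miR-133a-3p shares the seed of miR-133b-3p and miR-1a-3p that of miR-206-3p, but these are among the 6 rows without a matched sequence. The hairpins of miR-206 and miR-133b stand 3686 bases apart on the same strand, both in exons of the lincRNA Gm28653. They are printed with the arms that were measured in capitals.
Mir206: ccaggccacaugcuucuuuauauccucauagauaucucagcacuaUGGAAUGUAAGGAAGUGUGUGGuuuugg
Mir133b: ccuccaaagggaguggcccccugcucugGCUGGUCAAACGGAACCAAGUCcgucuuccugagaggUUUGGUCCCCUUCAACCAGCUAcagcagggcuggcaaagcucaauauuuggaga

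As a group, these miRNAs were less abundant in the ADM library. The 10 rows together held 6845 reads in BM, or 0.906% of the library (95% exact binomial interval 0.885 to 0.928%), and 1596 reads in ADM, or 0.202% (0.192 to 0.212%). This is a 4.49-fold lower share in ADM (95% exact conditional interval 4.25 to 4.74). The denominators were 755193 reads in BM and 790617 in ADM, and levels are given as RPM, the percent of these reads times 10000. Intervals cover counting error only.

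Nearly all of these reads were counted in the miR-486-5p row and in miR-133a-3p. The former, a row shared with miR-3107-5p, made up 65.9% of the group's reads in BM and 84.1% in ADM, and the latter 33.1% and 14.5%. The other 8 rows together held 70 and 23 reads, a 3.19-fold lower share in ADM (1.96 to 5.35). The reads are from bulk cultures, so fewer cells that hold a miRNA and less of it per cell cannot be told apart.

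**Figure D1:**
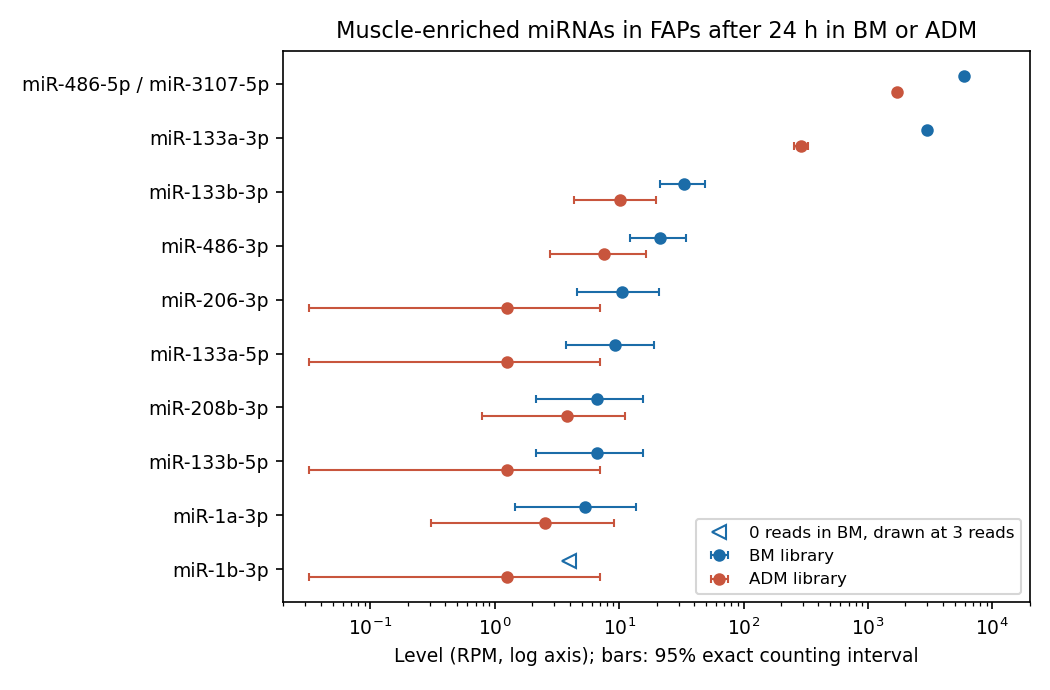
Level of each of the 10 muscle-enriched rows in the BM library (blue) and the ADM library (red), in RPM on a log axis, with 95% exact counting intervals and 1 library per medium. Only the miR-486-5p row and miR-133a-3p exceed 100 RPM in either library. The open triangle stands for 0 reads and is drawn at 3 reads.

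The 4 rows of the miR-133 family together were 10.0-fold lower in ADM (8.76 to 11.5), with 2303 and 241 reads. mmu-miR-133a-3p had 2266 reads in BM (3001 RPM, interval 2878 to 3127) and 231 reads in ADM (292 RPM, 256 to 332). It was thus 10.3-fold lower in ADM (8.97 to 11.8), and its rank was 41 of 628 rows in BM and 120 in ADM. On the scale used for ranking, log2((ADM + 1)/(BM + 1)) in RPM, its value of -3.36 was the lowest of the 337 rows with a mean of at least 10 RPM over both libraries, and also with a pseudocount of 10 RPM. Without a pseudocount it was the fourth lowest (rank 4), behind 3 rows with 5 reads or fewer in ADM. The passenger strand mmu-miR-133a-5p had 7 reads in BM and 1 in ADM, or 7.33-fold less, with an interval (0.941 to 330) that includes 1.

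mmu-miR-133b-3p, a paralog that differs from miR-133a-3p near the 3′ end, had 25 reads in BM (33.1 RPM) and 8 in ADM (10.1 RPM), and was 3.27-fold lower (1.43 to 8.39). mmu-miR-133b-5p had 5 reads in BM and 1 in ADM, with an interval of 0.586 to 248 for a 5.23-fold lower level. All 4 rows of miR-133 were lower in the ADM library, beyond counting error for both 3p arms. Of all 628 rows, 51.9% had a log2 value below 0, and 17.2% had an interval wholly below a ratio of 1. Of the 3p reads of the pair, miR-133a held 98.9% in BM (98.4 to 99.3%) and 96.7% in ADM (93.5 to 98.5%), which is 3.14 times as many miR-133a-3p reads per miR-133b-3p read in BM as in ADM (95% exact interval 1.21 to 7.28). How the authors divided reads that could come from either paralog was not stated, so the miR-133b values are uncertain.

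The 3p arm held most reads of miR-133a, over its 2 loci together, and of miR-133b in both libraries. In miR-133a the 3p arm held 99.7% of the reads of both arms in BM (99.4 to 99.88%) and 99.6% in ADM (97.6 to 99.99%). In miR-133b it held 83.3% (65.3 to 94.4%, 30 reads) and 88.9% (51.8 to 99.7%, 9 reads). A difference in arm use was not detectable at this depth.

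The miR-486 locus came next. The row mmu-miR-486-5p#mmu-miR-3107-5p had 4509 reads in BM (5971 RPM, 5798 to 6147) and 1342 in ADM (1697 RPM, 1608 to 1791). It was 3.52-fold lower in ADM (3.31 to 3.74), and its rank was 31 in BM and 56 in ADM. mmu-miR-486-3p had 16 reads in BM (21.2 RPM) and 6 in ADM (7.59 RPM), or 2.79-fold less, and its interval, 1.04 to 8.71, only just leaves out 1. The 5p row held 99.6% of the locus's reads in BM (99.4 to 99.8%) and also 99.6% in ADM (99.03 to 99.8%).

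The hairpins Mir486 (chromosome 8, 23142555-23142682, plus strand) and Mir3107 (23142573-23142662, minus strand) overlap by 90 bases within an intron of Ank1 (GENCODE M21, GRCm38). The reads of the joined row cannot be split between the strands. The 2 abundant members did not differ between the libraries in the same proportion. miR-133a-3p stood at 0.503 reads per read of the miR-486-5p row in BM (0.478 to 0.529) and at 0.172 in ADM (0.149 to 0.198), and this quotient is free of library scaling.

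**Figure D2:**
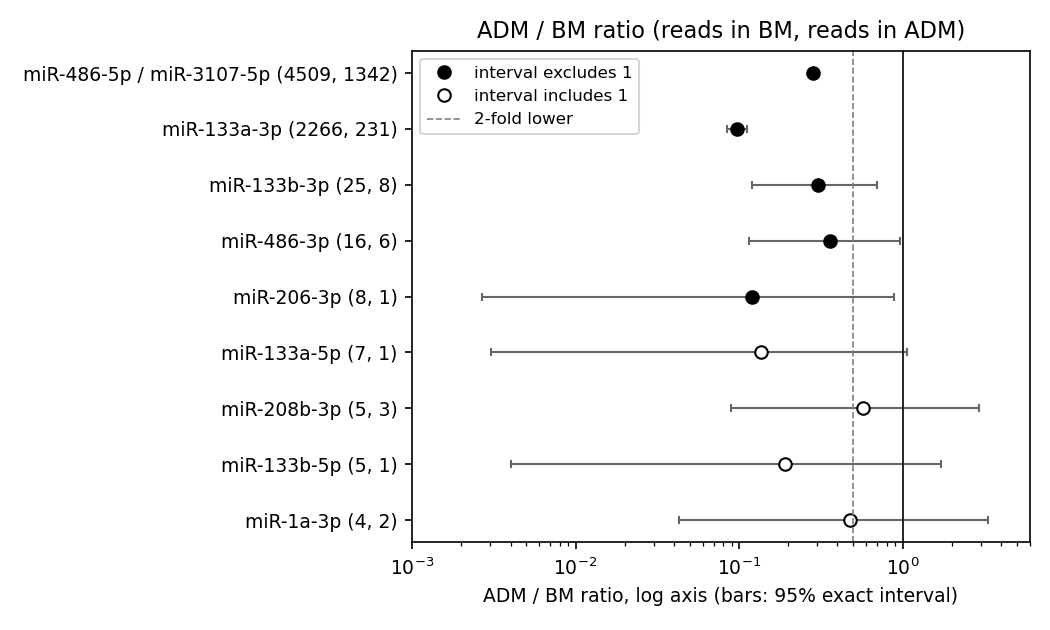
ADM to BM ratio of levels for the 9 rows with reads in BM, on a log axis, with 95% exact conditional intervals and the reads of each library in brackets. Filled points mark the 5 rows whose interval leaves out 1, among which miR-133a-3p (0.0974) stands apart from the miR-486-5p row (0.284), and the other 4 intervals include 1.

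The miR-1 and miR-206 family, by contrast, was close to absent in both libraries. mmu-miR-206-3p, the form restricted to skeletal muscle, had 8 reads in BM (10.6 RPM) and 1 in ADM (1.26 RPM). Its 8.38-fold lower level has an interval from 1.12 to 372, so its size is not known at this depth. mmu-miR-1a-3p, the main miRNA of differentiated heart and skeletal muscle, had 4 reads in BM (5.30 RPM) and 2 in ADM (2.53 RPM), a 2.09-fold lower level with an interval of 0.3001 to 23.1. mmu-miR-1b-3p had 0 reads in BM, which allows up to 3.97 RPM by the floor of 3 counts (the exact 95% interval ends at 4.88 RPM), and 1 read in ADM. The 3 rows together had 12 reads in BM and 4 in ADM, 3.14-fold lower with an interval (0.952 to 13.4) that includes 1. The slow-fibre mmu-miR-208b-3p had 5 and 3 reads (6.62 and 3.79 RPM), 1.74-fold lower with an interval of 0.339 to 11.2.

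Reads of miRNAs with neighbouring hairpins were unequal. miR-133a and miR-1a are encoded side by side at a pair of loci. On chromosome 2, Mir1a-1 (180389048-180389124) and Mir133a-2 (180398379-180398482) lie between annotated genes, 9254 bases apart on the plus strand. On chromosome 18, Mir1a-2 (10785481-10785552) and Mir133a-1 (10782909-10782976) lie 2504 bases apart on the minus strand, in introns of Mir133a-1hg and opposite to Mib1, and Mir1b (10785446-10785567) runs over Mir1a-2 on the other strand.

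For each read of miR-1a-3p there were 567 reads of miR-133a-3p in BM (221 to 2081) and 116 in ADM (31.6 to 959). At the chromosome 1 locus there were 3.13 reads of miR-133b-3p per read of miR-206-3p in BM (1.37 to 8.02) and 8 to 1 in ADM (1.07 to 355). These quotients compare different miRNAs within a library, and how efficiently each sequence enters a library is not measured here. Reads of miR-133a-3p and miR-1a-3p cannot be assigned to either of their loci.

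The order of levels in BM ran from the miR-486-5p row through miR-133a-3p, miR-133b-3p, miR-486-3p, miR-206-3p and miR-133a-5p to miR-208b-3p and miR-133b-5p (level with each other), miR-1a-3p and miR-1b-3p. The first 3 are separated from each other by more than their counting intervals. From miR-133b-3p downwards the intervals of neighbours overlap. In ADM the first 3 kept their order, again with separate intervals between the first and the second and between the second and the third, and every row below miR-486-3p had 3 reads or fewer.

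The counts were set beside those of the whole table. A row was counted when its level averaged 10 RPM or more over BM and ADM and differed at least 2-fold on the log2 scale. By this rule 20.5% of the 337 rows were lower and 10.7% were higher in ADM. Of the 10 muscle-enriched rows 4 reached the minimum, and these 4 were lower, namely miR-133a-3p (-3.36), the miR-486-5p row (-1.81), miR-133b-3p (-1.62) and miR-486-3p (-1.37). miR-486-3p reached the minimum through its BM level alone, so its count is no support. With a pseudocount of 10 RPM its value is -0.83, short of 2-fold. All 4 rows belong to the miR-133 and miR-486 families, so they are not 4 independent members.

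Without a minimum, 7 of the 10 rows were at least 2-fold lower, against 25.2% of all 628 rows, and 1 was at least 2-fold higher (miR-1b-3p, on 1 read), against 20.9%. Among the 6 rows under 10 RPM, 3 were lower, against 30.6% of the 291 rows at such levels. These 3 (miR-206-3p, miR-133a-5p and miR-133b-5p) have 1 read each in ADM. With a pseudocount of 10 RPM their values are -0.87, -0.77 and -0.56, short of 2-fold. Log2 values were below 0 in 9 of the 10 rows, against the 51.9% of all rows. The counting interval lay below 1 for 5 of the 10 (the 4 above and miR-206-3p), against 17.2%. The median over all 10 rows was -1.68, and over all 628 rows -0.04. Both arms of miR-133a, of miR-133b and of miR-486 are among the 10 rows. Arms of the same hairpin are not independent, so these counts do not number separate members.

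**Figure D3:**
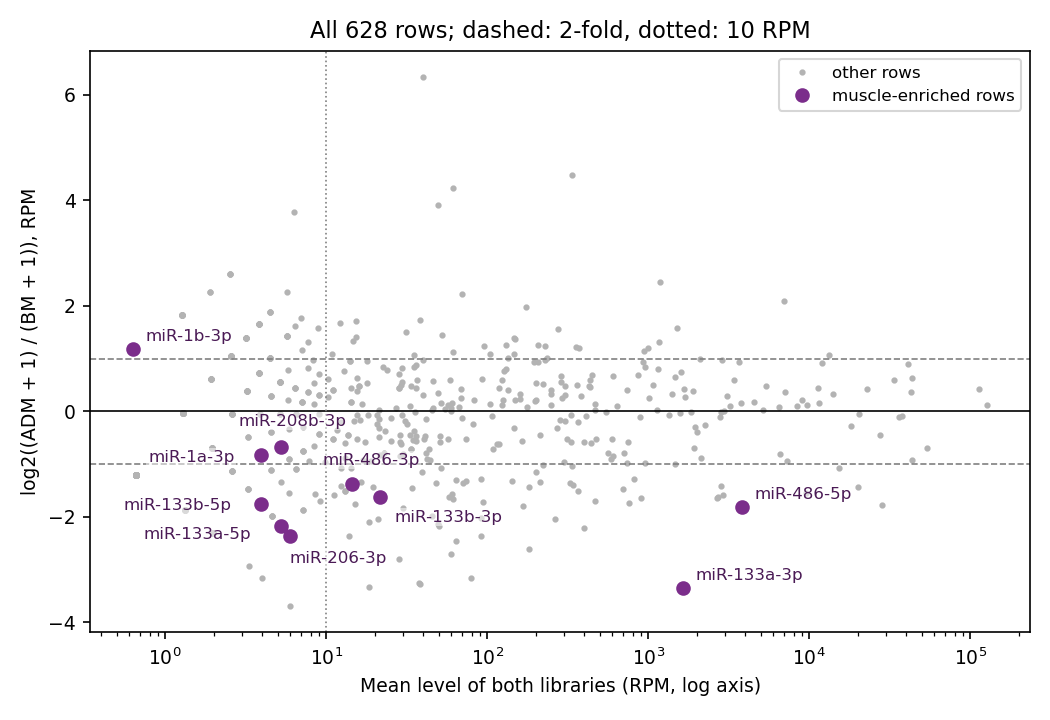
Log2 difference between libraries, log2((ADM + 1)/(BM + 1)) in RPM, against the mean level in RPM (log axis) for all 628 rows, with the muscle-enriched rows in purple. Dashed lines mark 2-fold and the dotted line 10 RPM. miR-133a-3p lies lowest among rows right of the dotted line on this scale, while the 6 rows left of it rest on 8 reads or fewer per library.

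Rows with the most similar difference were found by the distance in log2 value over the 2 libraries, among rows of at least 10 RPM. For miR-133a-3p they were miR-665-3p (26 reads in BM and 2 in ADM, -3.33), miR-543-3p (53 and 5, -3.28) and miR-667-3p (52 and 5, -3.25), all far less abundant. For the miR-486-5p row they were miR-673-3p (36 and 10, -1.83), miR-337-5p (197 and 59, -1.79) and miR-127-3p (33029 and 10155, -1.77). The likeness of the first 3 to miR-133a-3p depends on the pseudocount, since as ratios of levels miR-665-3p, miR-543-3p and miR-667-3p were 13.6-fold (3.41 to 118), 11.1-fold (4.47 to 35.6) and 10.9-fold lower (4.38 to 34.9). Likeness over 2 libraries is a single difference.

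Other miRNAs that act in myogenesis, without being muscle-enriched, had 19 rows above the minimum. Of these 4 were lower, 2 higher and 13 neither, shares close to the 20.5% lower and 10.7% higher of all 337 rows, and the median was -0.11, against -0.02 over those rows. With the trimmed mean of M values or median of ratios scaling 1 was higher, against 29 of 335 rows. miR-26a-5p, which promotes myogenic differentiation through Ezh2, had 50298 and 32365 reads (-0.70). miR-125b-5p, which restrains it, had 22270 and 8592 (-1.44), and miR-155-5p, a repressor of MEF2A, 277 and 1586 (2.45).

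miRNAs linked to brown fat, where miR-133 acts on Prdm16, had 1 of 16 rows lower and 1 higher, against the same 20.5% and 10.7%, with a median of -0.02. miR-27b-3p, an inhibitor of brown adipogenesis like miR-133, had 15031 and 13011 reads (-0.27) and was not 2-fold apart. miR-26a-5p and miR-155-5p belong to this list too, and miR-155-5p is its higher row. Its lower row was miR-328-3p (named with its value known), with 154 and 64 reads (-1.32).

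**Figure D4:**
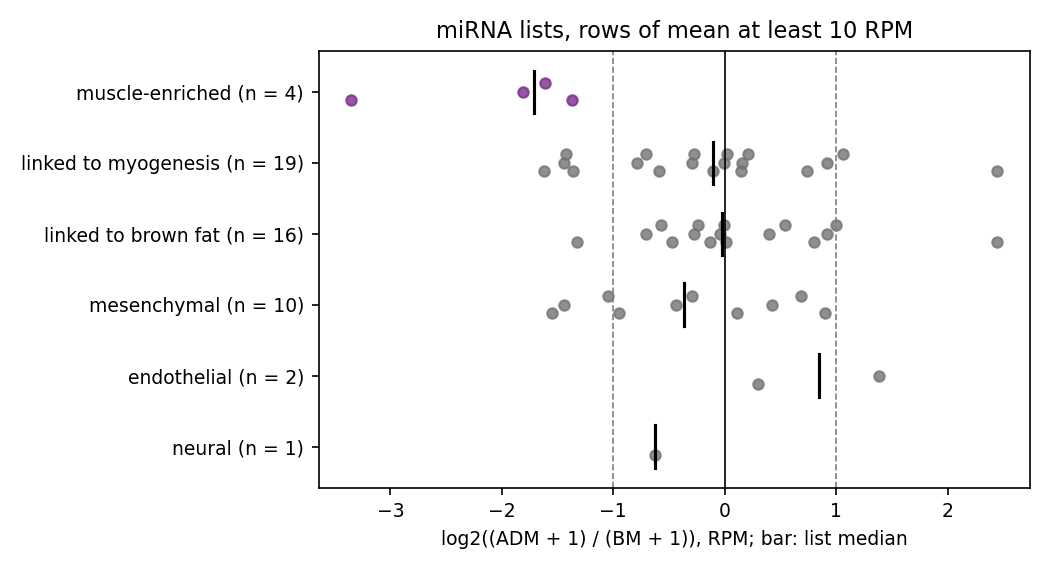
Log2 difference between libraries for the rows of each miRNA list with a mean of at least 10 RPM (points), with the list median as a black bar and 2-fold as dashed lines. The 4 muscle-enriched rows lie left of the 2-fold line, 1 of them (miR-486-3p) shown only through its BM level, and the rows linked to myogenesis and to brown fat lie on either side of 0. The blood and epithelial lists have no row at this level.

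Markers of other cells were read beside these values. Differentiated muscle is marked by miR-1a-3p, at 4 and 2 reads. Of the same muscle-enriched list, miR-133a-3p had 2266 and 231 reads and the miR-486-5p row 4509 and 1342. Whether muscle cells were present in the cultures was not tested. Red and white blood cell miRNAs, which matter for miR-486, had rows for 2 of the 7 names on their list and summed to 1 read in BM and 4 in ADM, with miR-451a, the erythroid marker, at 0 and 1 and miR-150-5p, of lymphocytes, at 1 and 3. The 3 epithelial rows summed to 3 and 1 reads, with miR-141-3p at 2 and 0 and miR-205-5p at 1 and 0.

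The 3 neural rows summed to 32 and 24 reads, among them miR-9-5p with 27 and 18 (-0.63) and miR-9-3p with 4 and 2. Endothelial miR-126-5p was 2.63-fold higher in ADM (1.95 to 3.59), with 61 and 168 reads, while miR-126-3p had 27 and 35 reads and a ratio of 1.24 (0.728 to 2.13). The 2 rows summed to 88 and 203 reads, and their part in the differences above was not tested. The 10 mesenchymal rows held 33.6% of BM reads and 36.3% of ADM reads, led by miR-22-3p (92404 and 104509 reads) and miR-21a-5p (73384 and 102897). Of these 10 rows 3 were lower, against 20.5% of all 337 rows. With the trimmed mean of M values 4 were lower, against 79 of 335 rows, and with the median of ratios 4, against 80 of 335. The largest difference was that of miR-100-5p (-1.55). The lists hold no miRNA particular to FAPs, so the sort itself was not checked.

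The authors' deposited table gives an ADM to BM ratio below 0.2 for 4 of the 10 rows. In the authors' deposited table these are miR-133a-3p (0.0974), miR-206-3p (0.119), miR-133a-5p (0.136) and miR-133b-5p (0.191), of which only miR-133a-3p has more than 8 reads in either library. miR-206-3p, miR-133a-5p and miR-133b-5p have 1 read each in ADM. The share of all rows below 0.2 is not given here, so this count is not read as a result about the members. The authors' deposited table also gives a ratio of 1.91 for miR-1b-3p, which compares 1 read with the 0.5 read that replaced a 0.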

How the data were processed

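Small RNA libraries were made with an Illumina TruSeq kit from mirVana RNA, with a 147 bp gel band, and sequenced on a MiSeq, per the labels' protocols. The authors' values came from miRanalyzer, per the file headers, and the submitters' processing notes name mm10. Its filters and its handling of multiply mapped reads were not stated. The deposited values are percent of reads (columns sum to 99.9%). The authors' second table replaced 0 by 0.5 read and adds a deposited ratio and log2 ratio.

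In 100% of rows both percent values were an integer multiple (tolerance 0.001) of the column's lowest value above 0, taken as 1 read (1.32 RPM in BM, 1.26 in ADM). Python 3.11.15 with SciPy 1.17.1 gave Clopper-Pearson intervals of shares and exact conditional intervals of ratios, checked on simulated data. No p-value was computed. Folds are ratios of levels; log2 values carry a pseudocount of 1 RPM, which understates differences of low rows. PCR reads lacking molecular identifiers are not independent molecules.

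Members and lists were chosen with earlier results of these data known. Named were all members, the 3 rows nearest to each abundant member, and per list the 2 most abundant rows and the one furthest from 0. Hairpin positions are from GENCODE M21. Alternatives changed the pseudocount, minimum, fold, scaling, or rows summed.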

Additional observations from a re-analysis of the deposited data

How the results depend on the processing

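Of 39 alternative log2 values of single rows (other pseudocounts and scalings), 37 stayed within the counting interval, which is too wide to be left by rows of few reads. That 0 changed sign is no support, since a pseudocount cannot change the sign. The shift of the scalings was smaller than the reported value of every member. With a pseudocount of 10 RPM, miR-206-3p moved from -2.36 to -0.87, miR-133a-5p from -2.18 to -0.77, miR-133b-5p from -1.75 to -0.56, miR-486-3p from -1.37 to -0.83, miR-1a-3p from -0.84 to -0.29, miR-208b-3p from -0.67 to -0.27 and miR-1b-3p from 1.18 to 0.17. By the same setting miR-133b-3p moved from -1.62 to -1.10, just beyond 2-fold. The 2 values outside the interval, for the miR-486-5p row, were -1.92 under scaling by trimmed mean of M values and -1.93 under scaling by median of ratios. These scalings shift ADM values down by 0.11 on the log2 scale, and the median of all rows above the minimum from -0.02 to -0.14 and -0.15. The summed share of all members had a log2 ratio of -2.17, against -2.27 and -2.28 with these scalings. It was -1.81 without miR-133a-3p, -3.29 without the miR-486 and miR-3107 rows, and -1.67 when both abundant rows (miR-486-5p, miR-133a-3p) were left out, the last chosen after seeing the data. Members at least 2-fold lower numbered 4, but 7 with no minimum and 2 with a minimum of 100 RPM, where only 2 rows are left. Members at least 3-fold lower numbered 3, and with a pseudocount of 10 RPM 3 were at least 2-fold lower. With miR-133a-3p and miR-133b-3p summed the number was also 3, since this merges 2 counted rows into 1. Shares of all rows at these settings and at the minimum of 100 RPM are not given here, so these counts are not read as results about the members. Members at least 2-fold higher numbered 0, but 1 with no minimum. Shares of the arms have no alternative setting. With 1 library per medium no library could be left out, and depth limits all rows but the 2 abundant ones.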
